A study of Mus musculus with 9 samples.

Results

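The 35 genes described here encode the machinery of mitosis and cytokinesis: the cyclins and kinases that drive cells into mitosis, the proteins that attach chromosomes to the spindle, the checkpoint that times their separation, the motors of the spindle and the proteins that divide the cell. They were chosen by gene symbol from the 32594 genes of the deposited count table, all 35 were found, and all 35 passed the filter on low counts, with at least 10 counts in every SMA library. The study sequenced RNA of hindlimb skeletal muscle in 9 libraries on the FVB/N background, 4 from SMN delta 7 mice (called SMA) and 5 from wild type mice (WT). SMN delta 7 mice model spinal muscular atrophy, in which a lack of the survival motor neuron (SMN) protein destroys spinal motor neurons and muscle wastes. The labels name the SMA genotype only as SMN delta 7, and the alleles, the age, the litter, the muscle sampled and any treatment are not given in them. Nothing in the labels says that each library came from its own animal, so p-values measure only the spread between libraries, part of which may be technical.

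Most transcripts of mitosis are made late in the cell cycle and are destroyed or no longer made once a cell stops dividing. A muscle fibre is a fused cell whose nuclei no longer divide. In growing muscle these transcripts therefore come from cells between and beneath the fibres, such as satellite cells and the myoblasts they give rise to, fibro-adipogenic progenitors, endothelial cells, pericytes, macrophages and Schwann cells. Whole muscle was sequenced, so fewer dividing cells and less RNA of these genes per dividing cell cannot be told apart in any result below.

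Depth was 30746646 to 35087722 counts in the SMA libraries and 24917665 to 34094645 counts in the WT libraries. Levels are in CPM, the count scaled to 1000000 counts of the library after correction for composition, and changes are log2 fold changes of SMA over WT with their standard error (SE). Smn1, the mouse gene for SMN, had 1.80, 2.24, 1.40 and 2.72 CPM in SMA libraries 1 to 4, against 13.1, 13.5, 13.8, 11.1 and 13.3 CPM in WT libraries 1 to 5, so every SMA library lay far below every WT library. Reads of Y-linked genes were present in 1 of 4 SMA libraries and in 4 of 5 WT libraries, so the sexes were unevenly divided. With sex as a covariate all 35 genes still fell, with a median log2 fold change of -1.86.

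All 35 genes were lower in SMA muscle. By the quasi-likelihood test of edgeR, adjusted over 15873 genes by Benjamini-Hochberg, 35 of 35 fell, with adjusted p-values from 7.39e-08 to 0.00411, where 27.2% of all genes tested fell and 27.7% rose. A fall of at least 2-fold was found for 34 of them, against 6.28% of all genes. The median log2 fold change of the 35 genes was -1.88, with the middle of the distribution between -2.04 and -1.58, against a median of 0.006 over all genes tested. Every SMA library lay below every WT library for all 35, a separation that 21.7% of all genes tested showed. Added over the 35 genes, the level was 118, 109, 94.2 and 115 CPM in SMA libraries 1 to 4, against 368, 418, 383, 402 and 313 CPM in WT libraries 1 to 5. Divided by each library's total counts in place of the scaled library size, the same genes took 124, 117, 110 and 125 of every 1000000 counts in the SMA libraries, against 336, 431, 352, 390 and 259 in the WT libraries.

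**Figure D1:**
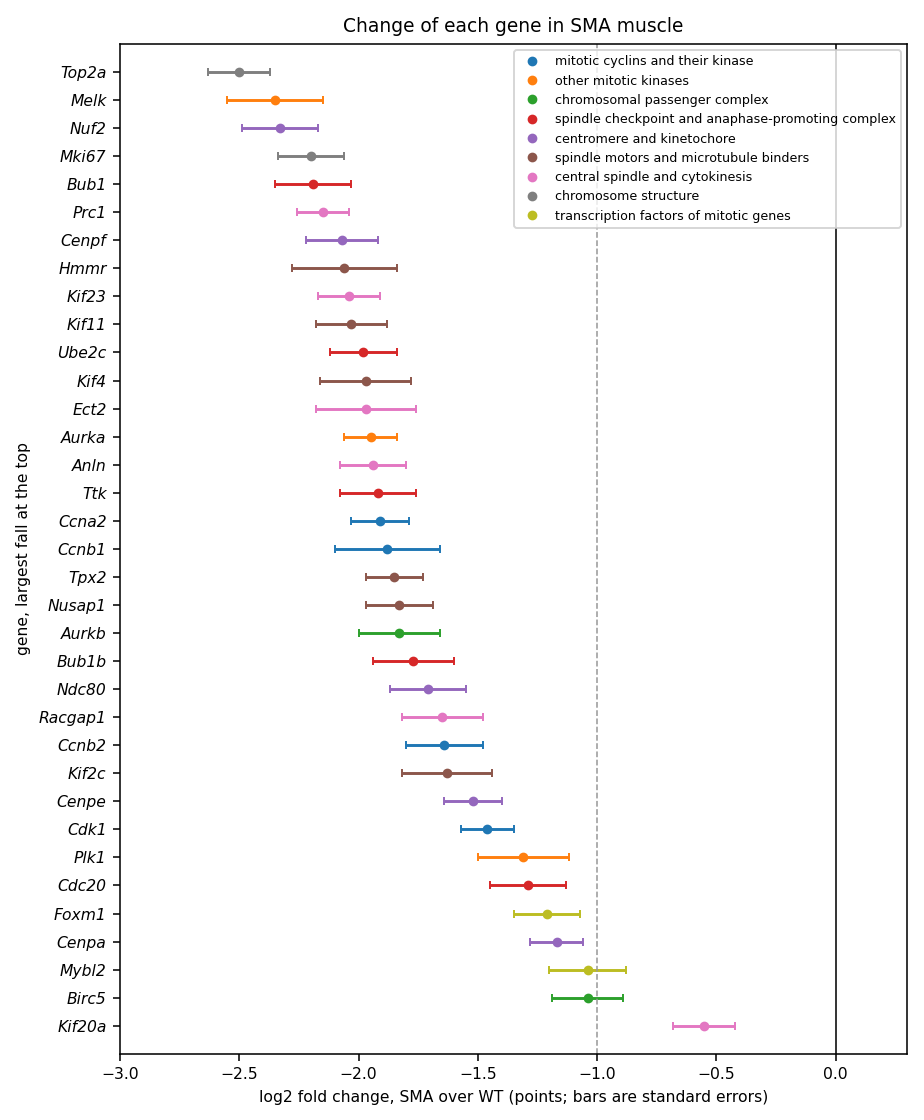
Log2 fold change of each of the 35 genes, SMA over WT (horizontal axis), with the largest fall at the top. Points are edgeR estimates, bars are standard errors and colours give the role. The dashed line marks a 2-fold fall, which Kif20a, at -0.55 ± 0.13, was the 1 gene not to reach, and Top2a fell furthest, at -2.50 ± 0.13.

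The 2 genes of chromosome structure were among the 5 largest falls. Top2a (chr11:98992943-99024189, minus strand, GRCm38) encodes topoisomerase II alpha, which untangles sister chromatids before they separate. Its level was 6.38, 6.58, 4.78 and 7.55 CPM in SMA libraries 1 to 4, against 36.4, 40.2, 35.5, 36.6 and 30.8 CPM in WT libraries 1 to 5. The highest SMA library was thus 4.08-fold below the lowest WT library. Top2a averaged 6.32 ± 1.15 CPM in SMA (SD, n = 4) and 35.9 ± 3.34 CPM in WT (SD, n = 5), a 5.67-fold fall (log2 fold change -2.50 ± 0.13, adjusted p = 7.39e-08 by edgeR), which left 17.6% of the WT level. Mki67 (chr7:135689784-135716361, minus strand) encodes the Ki-67 protein, which coats mitotic chromosomes and is the common marker of dividing cells. It had 13.5, 11.8, 8.30 and 10.7 CPM in the SMA libraries, against 46.8, 57.3, 50.0, 56.4 and 43.1 CPM in the WT libraries. Mki67 averaged 11.1 ± 2.16 CPM in SMA (SD, n = 4) and 50.7 ± 6.12 CPM in WT (SD, n = 5), a 4.58-fold fall (-2.20 ± 0.14, adjusted p = 3.02e-07 by edgeR), and SMA 3 was the lowest library for both genes.

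The mitotic cyclins and the kinase they activate all fell, with a median log2 fold change of -1.76 over the 4 genes. Cdk1 (chr10:69335146-69352938, minus strand) encodes the kinase whose activity brings on mitosis. It had 7.04, 6.18, 5.84 and 5.31 CPM in SMA libraries 1 to 4, against 15.6, 18.6, 17.5, 17.7 and 14.4 CPM in WT libraries 1 to 5, a log2 fold change of -1.46 ± 0.11 (adjusted p = 1.02e-06 by edgeR). Ccna2 (chr3:36564865-36572150, minus strand), the cyclin of S phase and early mitosis, had 5.58, 5.27, 4.95 and 6.09 CPM in SMA, against 18.7, 22.7, 21.7, 23.2 and 16.3 CPM in WT. Its log2 fold change was -1.91 ± 0.12 (adjusted p = 3.02e-07 by edgeR), and the groups were far apart. Ccnb1 (chr13:100778650-100786570, minus strand), the main mitotic cyclin, had 1.57, 1.17, 0.923 and 1.18 CPM in SMA, against 3.61, 5.36, 4.34, 5.77 and 3.23 CPM in WT, and changed by -1.88 ± 0.22. Relative to the mean, its WT libraries were spread more widely than those of Cdk1, with WT 1 and WT 5 low. The WT SD was 1.09 CPM at a mean of 4.46 CPM for Ccnb1, against 1.71 CPM at 16.7 CPM for Cdk1. Ccnb2, the second B-type cyclin, changed by -1.64 ± 0.16.

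Kinases beside Cdk1 fell as well. Aurka (chr2:172356190-172370535, minus strand) encodes Aurora A, which matures the spindle poles. Its SMA libraries held 1.98, 1.73, 2.18 and 2.11 CPM and its WT libraries 7.43, 7.94, 7.66, 7.55 and 7.97 CPM. Both groups were tight, at 2.00 ± 0.197 CPM in SMA (SD, n = 4) and 7.71 ± 0.238 CPM in WT (SD, n = 5), and the log2 fold change was -1.95 ± 0.11 (adjusted p = 1.78e-07 by edgeR). Melk (chr4:44300876-44364675, plus strand), a kinase abundant in dividing cells, had 0.601, 0.825, 0.867 and 0.758 CPM in SMA, against 3.96, 4.52, 4.31, 4.09 and 2.69 CPM in WT. Melk had the second largest fall of the 35, at -2.35 ± 0.20, and WT 5 stood below the other WT libraries. Plk1, a kinase used from spindle assembly to cytokinesis, changed by -1.31 ± 0.19. The chromosomal passenger complex, which corrects wrong attachments and later directs cytokinesis, was represented by its kinase and by survivin. Aurkb (chr11:69045647-69051664, plus strand), the Aurora B kinase, had 2.29, 2.13, 1.43 and 1.88 CPM in SMA, against 6.6, 8.32, 6.56, 7.24 and 5.6 CPM in WT (-1.83 ± 0.17, adjusted p = 3.77e-06 by edgeR). Birc5, which encodes survivin, changed by -1.04 ± 0.15.

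Genes of the kinetochore and of the checkpoint that watches it fell together. Nuf2 (chr1:169497934-169531464, minus strand) encodes a subunit of the Ndc80 complex, the link between kinetochore and microtubule. It had 1.49, 1.49, 1.03 and 1.24 CPM in SMA libraries 1 to 4, against 6.77, 6.81, 7.51, 6.54 and 5.42 CPM in WT libraries 1 to 5 (-2.33 ± 0.16, adjusted p = 4.22e-07 by edgeR). Its partner Ndc80 changed by -1.71 ± 0.16. Cenpf and the motor gene Cenpe, which act at the outer kinetochore, changed by -2.07 ± 0.15 and -1.52 ± 0.12. Cenpa, the histone H3 variant that marks the centromere itself, had the smallest change of the 5, at -1.17 ± 0.11. Bub1 (chr2:127801122-127831865, minus strand), a checkpoint kinase gene, had 1.12, 1.17, 1.01 and 1.21 CPM in SMA, against 5.32, 5.97, 4.04, 5.07 and 5.35 CPM in WT. Its SMA libraries were nearly equal, and the log2 fold change was -2.19 ± 0.16 (adjusted p = 6.26e-07 by edgeR). The other checkpoint genes Bub1b and Ttk changed by -1.77 ± 0.17 and -1.92 ± 0.16. Of the genes that act with the anaphase-promoting complex, the ubiquitin ligase that ends mitosis, Ube2c, its ubiquitin-conjugating enzyme, changed by -1.98 ± 0.14 and Cdc20, its activator, by -1.29 ± 0.16.

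The 6 spindle genes lay close together, with log2 fold changes between -2.06 and -1.63. Tpx2 (chr2:152847964-152895321, plus strand), which activates Aurora A and brings it to the spindle, had 4.18, 4.29, 3.35 and 4.60 CPM in SMA, against 15.7, 15.6, 14.9, 15.6 and 12.5 CPM in WT (-1.85 ± 0.12, adjusted p = 2.88e-07 by edgeR). The motor gene Kif11, whose product pushes the spindle poles apart, changed by -2.03 ± 0.15, the chromosome-bound motor gene Kif4 by -1.97 ± 0.19, and the microtubule depolymerase gene Kif2c by -1.63 ± 0.19. Hmmr and Nusap1, whose products bind spindle microtubules, changed by -2.06 ± 0.22 and -1.83 ± 0.14.

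Of the 6 cytokinesis genes, 5 changed by -2.15 to -1.65 and 1, Kif20a, by -0.55. Prc1 (chr7:80294450-80316259, plus strand) bundles the microtubules of the central spindle. It had 3.15, 3.30, 2.99 and 3.82 CPM in SMA libraries 1 to 4, against 15.0, 16.0, 14.7, 15.1 and 12.8 CPM in WT libraries 1 to 5 (-2.15 ± 0.11, adjusted p = 7.39e-08 by edgeR). Kif23 and Racgap1, which form the centralspindlin complex, changed by -2.04 ± 0.13 and -1.65 ± 0.17. Ect2, the exchange factor that switches on RhoA at the cleavage furrow, changed by -1.97 ± 0.21, and Anln, the anillin scaffold of the contractile ring, by -1.94 ± 0.14. Kif20a (chr18:34624613-34633277, plus strand), the motor that carries the passenger complex to the central spindle, was singled out after its values were seen. It had 5.24, 4.47, 3.83 and 4.13 CPM in SMA, against 7.08, 7.03, 7.01, 5.52 and 5.67 CPM in WT. SMA 1 lay just under WT 4, so the groups were close without overlapping. The change was -0.55 ± 0.13 (adjusted p = 0.00411 by edgeR), and it did not pass when libraries were scaled to total counts, at -0.32 with an adjusted p of 0.0924 by edgeR.

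Some of these values may hold reads of a neighbouring gene, or lack reads of bases shared with it, depending on how the counting treated them. Exons of 10 of the 35 genes overlap exons of another gene in GENCODE M21, and whether counting used the strand is not given in the sources used here. Kif20a shares 1271 exon bases, or 29.3% of its own, with Cdc23 on the opposite strand. Cdc23, a subunit of the anaphase-promoting complex, stood at 32.7 ± 1.26 CPM in SMA (SD, n = 4) and 31.2 ± 2.36 CPM in WT (SD, n = 5), with a log2 fold change of 0.07 and an adjusted p of 0.453 by edgeR, and under scaling to total counts it rose by 0.30. Ube2c shares 592 exon bases, or 22.8%, with the opposite-strand troponin gene Tnnc2, which had a mean of 5570 CPM in SMA and 10600 CPM in WT (log2 fold change -0.92 ± 0.12). The overlaps were 15.1% of exon bases for Kif4 with Pdzd11, 12.5% for Ccna2 with Exosc9, 11.1% for Prc1 with Rccd1 and at most 7.09% for the remaining genes. What part reads of shared bases, gained or lost, have in the levels and changes of these genes was not tested.

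The transcription factor genes of the list had some of the smaller falls. Foxm1 (chr6:128362967-128376146, plus strand), an activator of genes of late G2 and mitosis, had 5.04, 6.07, 4.75 and 5.47 CPM in SMA, against 11.4, 14.8, 12.6, 13.5 and 9.46 CPM in WT (-1.21 ± 0.14, adjusted p = 1.72e-05 by edgeR). Mybl2, which encodes B-Myb, an activator that acts with the MuvB complex, changed by -1.04 ± 0.16. Of the 35 genes, 30 had a larger fall than Foxm1. Differences between genes in the size of the fall were not tested.

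**Figure D2:**
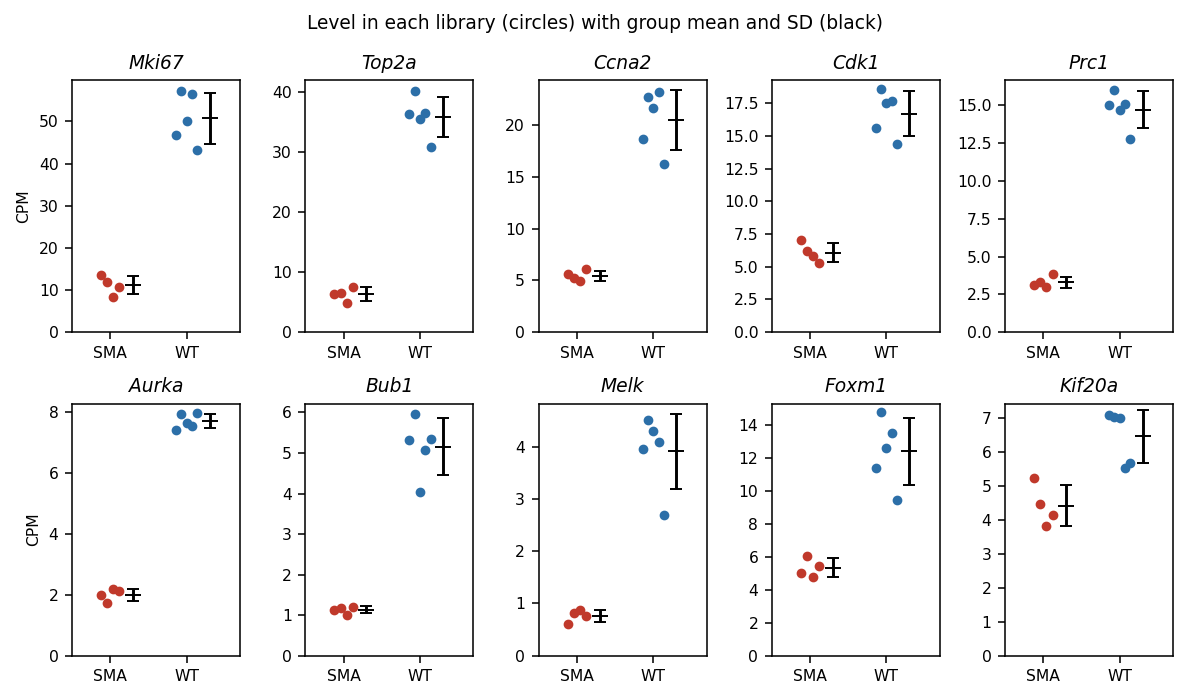
CPM (vertical axes, each starting at 0) in each of 4 SMA and 5 WT libraries (circles) for 10 of the genes, with the group mean and SD in black. The SMA circles lie below all WT circles in every panel, and the groups come closest for Kif20a, with 5.24 CPM in SMA 1 and 5.52 CPM in WT 4.

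The levels of genes whose products work as partners were set beside each other as log2 ratios per exon length, on which scaling between libraries has no effect. The 9 pairs were chosen after the fold changes of their genes were seen, so their ratios are a description with no test. The log2 ratio of Nuf2 to Ndc80 was 0.09, 0.26, -0.22 and 0.00 in SMA libraries 1 to 4, against 0.75, 0.64, 0.75, 0.44 and 0.80 in WT libraries 1 to 5. The mean log2 ratio was 0.03 ± 0.2 in SMA (SD, n = 4), against 0.67 ± 0.14 in WT (SD, n = 5). The value of each ratio depends on the length of all annotated exons, and its difference between the groups does not. Equal levels of the subunits in SMA are therefore not shown. The log2 ratio of Aurkb to Birc5 was -1.03, -0.91, -1.86 and -1.49 in SMA, against -0.66, -0.36, -0.63, -0.62 and -0.28 in WT. All SMA libraries lay below all WT libraries, with SMA 3 the lowest. The log2 ratio of Ube2c to Cdc20 was -1.29, -1.67, -1.15 and -1.23 in SMA, against -0.58, -0.87, -0.85, -0.59 and -0.24 in WT, again without overlap and beside the shared exon bases of Ube2c and Tnnc2.

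The kinase and its cyclins gave smaller differences. Relative to Cdk1, Ccna2 averaged 0.12 ± 0.24 in SMA (SD, n = 4) and 0.56 ± 0.078 in WT (SD, n = 5) on the log2 scale, and SMA 4, at 0.47, lay just above WT 5, at 0.45. For Ccnb1 relative to Cdk1 the means were -2.12 ± 0.24 in SMA and -1.71 ± 0.23 in WT, and SMA 1 and WT 5 were both at -1.93 when rounded. Ccnb2 relative to Cdk1 was at 0.43 ± 0.32 in SMA and 0.61 ± 0.13 in WT, and SMA 4, at 0.91, was the highest of all libraries. The log2 ratio of Kif23 to Racgap1 averaged -1.33 ± 0.26 in SMA and -0.94 ± 0.24 in WT, and that of Bub1 to Bub1b -1.07 ± 0.22 in SMA and -0.67 ± 0.32 in WT. Tpx2 relative to Aurka was at 0.15 ± 0.29 in SMA and 0.05 ± 0.17 in WT. The groups overlapped for the ratios of Ccnb2, Kif23, Bub1 and Tpx2 as well as for that of Ccna2.

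The genes were also ordered by level per exon length, in CPM per kilobase of the group mean, as a description. Cdc20 was highest in both, at 2.30 in SMA and 5.62 in WT, and Ccnb2 came second in both, at 1.67 in SMA and 5.20 in WT. Birc5 took the third place in SMA, at 1.62, and the eighth in WT, at 3.34. Top2a moved the other way, to place 15 in SMA, at 0.702, against place 5 in WT, at 3.98. Kif20a stood at place 7 in SMA, at 1.02, and at place 19 in WT, at 1.49. Lowest were Cenpf in SMA, at 0.162, and Ttk in WT, at 0.646. Exon length is that of all annotated exons, which overstates the length of genes with long rare isoforms.

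Within each group, 1 library was low for most of the genes. SMA 3 was the lowest SMA library for 24 of the 35 and WT 5 the lowest WT library for 25. WT 2 was the highest WT library for 17, and the highest SMA library was SMA 4 for 13 genes and SMA 1 for 12. SMA 3 and WT 5 also had the most extreme scaling factors, 1.165 for SMA 3 and 0.828 for WT 5. Without both, all 35 genes fell and their median log2 fold change was -1.87.

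**Figure D3:**
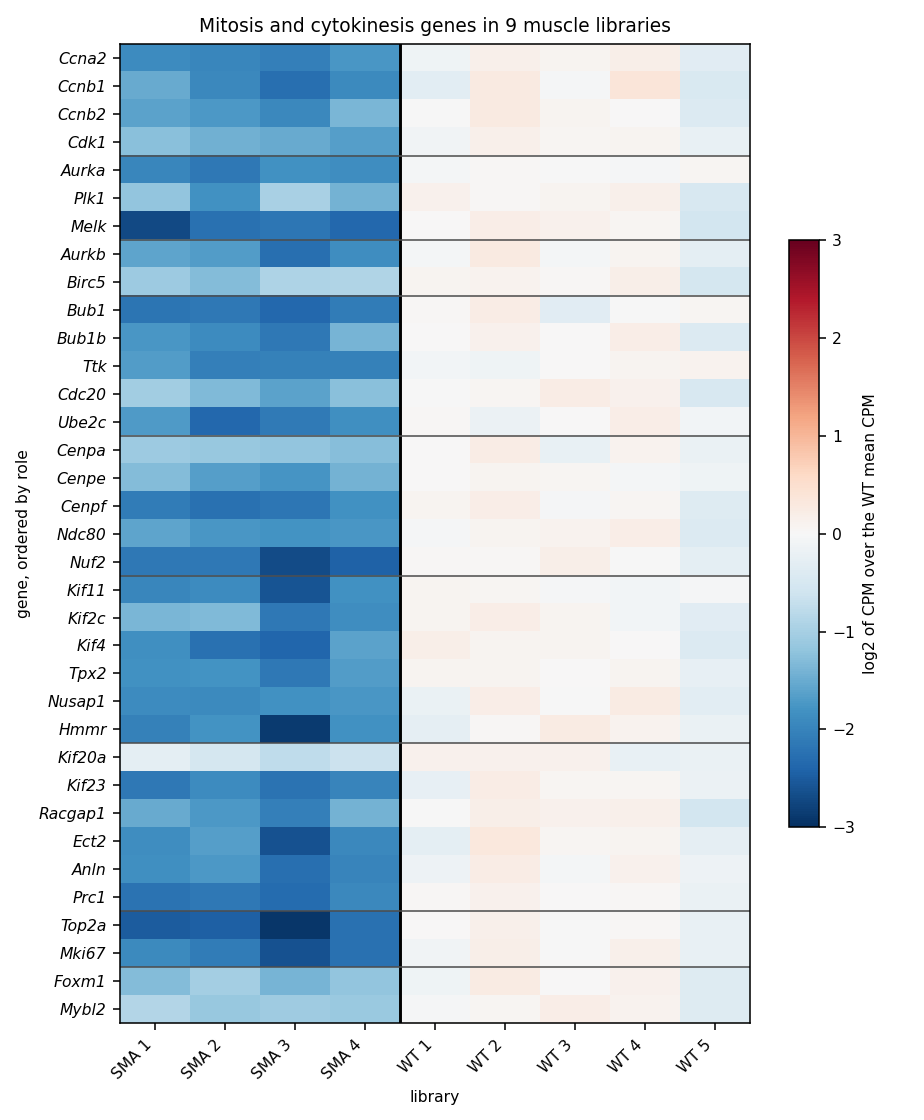
Log2 of CPM over the WT mean CPM for the 35 genes (rows, in the order of their roles) in 4 SMA libraries (left) and 5 WT libraries (right). Blue is below and red above the WT mean. The SMA columns are blue in every row, palest for Kif20a, and WT 5 is the lowest WT library for 25 genes.

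Promoters of genes that move together in the cell cycle often share short motifs. In human and mouse cells many mitotic genes carry a cell cycle genes homology region (CHR), bound by MuvB complexes, and CCAAT boxes, bound by NF-Y. Windows of 300 bases, 250 before and 50 after the annotated start, were searched on both strands for 3 motifs: CHR, spelled TTTGAA or TTCGAA, the CCAAT box, spelled CCAAT, and the E2F motif, spelled TTCCCGC or TTTGGCG. RefSeq windows on GRCm38.p6 were at hand for 30 of the 35 genes, without Ccna2, Aurkb, Tpx2, Foxm1 and Kif20a. A CHR match was present in 23 of the 30 (76.7%), against 19.4% of 27025 promoters of all genes and 13.6% of 11038 promoters of genes tested. RefSeq and GENCODE starts can differ. The windows of Kif2c (chr4:117178723-117179022, minus strand) and Kif4 (chrX:100625815-100626114, plus strand) lie inside the GENCODE genes, which start at 117182639 and 100625737. Both windows hold a CHR match that is counted here. A CCAAT match was present in 22 (73.3%), against 37.9% of all promoters and 38.2% of those of genes tested. Both were present in 20 (66.7%), against 7.70% of all promoters and 5.75% of those of genes tested. An E2F match was present in 1, Melk (3.33%), against 6.07% of all promoters and 10.5% of those of genes tested. No matches of different motifs overlapped. Many of the 35 genes are known as cell cycle genes and were listed for that, so these shares describe the list and its promoters, not the change in SMA.

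Shown here are the window of the gene with the largest fall, Top2a, then Prc1 with 1 CHR and 1 CCAAT match, Cdk1 and Ccnb2 of the cyclin-kinase pair, and Nuf2, which fell 5.02-fold and has no match of any of the 3 motifs. Capitals mark CHR and CCAAT matches on either strand, so a CCAAT box on the other strand reads ATTGG and a CHR TTCAAA.
Top2a, chr11:99024140-99024439, minus strand: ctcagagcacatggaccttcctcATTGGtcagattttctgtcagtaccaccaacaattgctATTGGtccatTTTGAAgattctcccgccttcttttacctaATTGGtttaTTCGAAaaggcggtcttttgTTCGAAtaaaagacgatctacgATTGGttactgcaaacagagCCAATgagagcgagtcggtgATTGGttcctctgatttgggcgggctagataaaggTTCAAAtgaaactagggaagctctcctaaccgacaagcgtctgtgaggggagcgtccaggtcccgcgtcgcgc
Prc1, chr7:80294201-80294500, plus strand: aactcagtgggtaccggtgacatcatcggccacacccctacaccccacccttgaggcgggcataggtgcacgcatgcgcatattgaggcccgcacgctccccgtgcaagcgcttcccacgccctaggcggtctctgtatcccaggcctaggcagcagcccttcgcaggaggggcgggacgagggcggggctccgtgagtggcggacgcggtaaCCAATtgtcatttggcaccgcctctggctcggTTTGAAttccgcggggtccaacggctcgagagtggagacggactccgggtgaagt
Cdk1, chr10:69352863-69353162, minus strand: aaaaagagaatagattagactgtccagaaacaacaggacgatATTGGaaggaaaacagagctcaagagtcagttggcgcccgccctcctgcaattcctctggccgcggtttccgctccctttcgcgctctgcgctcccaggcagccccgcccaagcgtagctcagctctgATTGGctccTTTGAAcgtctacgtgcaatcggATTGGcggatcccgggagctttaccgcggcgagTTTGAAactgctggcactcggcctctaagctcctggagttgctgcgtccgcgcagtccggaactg
Ccnb2, chr9:70421505-70421804, minus strand: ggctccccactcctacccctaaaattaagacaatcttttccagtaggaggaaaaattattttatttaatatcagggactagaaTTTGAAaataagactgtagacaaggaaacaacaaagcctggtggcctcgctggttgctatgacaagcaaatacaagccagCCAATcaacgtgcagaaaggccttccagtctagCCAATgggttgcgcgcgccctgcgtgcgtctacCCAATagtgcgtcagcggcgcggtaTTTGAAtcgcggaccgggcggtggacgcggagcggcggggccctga
Nuf2, chr1:169531415-169531714, minus strand: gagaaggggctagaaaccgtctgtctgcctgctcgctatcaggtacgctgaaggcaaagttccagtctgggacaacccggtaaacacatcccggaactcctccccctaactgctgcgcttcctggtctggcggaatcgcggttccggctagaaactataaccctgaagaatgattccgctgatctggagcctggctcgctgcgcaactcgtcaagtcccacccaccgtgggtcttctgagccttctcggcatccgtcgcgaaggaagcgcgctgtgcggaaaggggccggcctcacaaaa
The Top2a window holds 6 CCAAT matches and 4 CHR matches, more CHR matches than any other of the 30 windows, and its last CHR begins 23 bases before the start. In Prc1 the CCAAT match begins 37 and the CHR match 5 bases before the start. In Ccnb2 and Cdk1 3 CCAAT matches each precede a CHR close to the start, which begins at base 5 of the transcript in Ccnb2 and 15 bases before the start in Cdk1. This order, with the last CHR nearer to the gene than the last CCAAT box, was found after the positions were seen in 19 of the 20 windows with both, and Cdc20 was the exception. Nusap1, Mybl2 and Birc5 had no match either, and the log2 fold changes of these 4 genes without a match ran from -2.33 for Nuf2 to -1.04 for Mybl2 and Birc5. No match says only that these letters are not in this window.

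**Figure D4:**
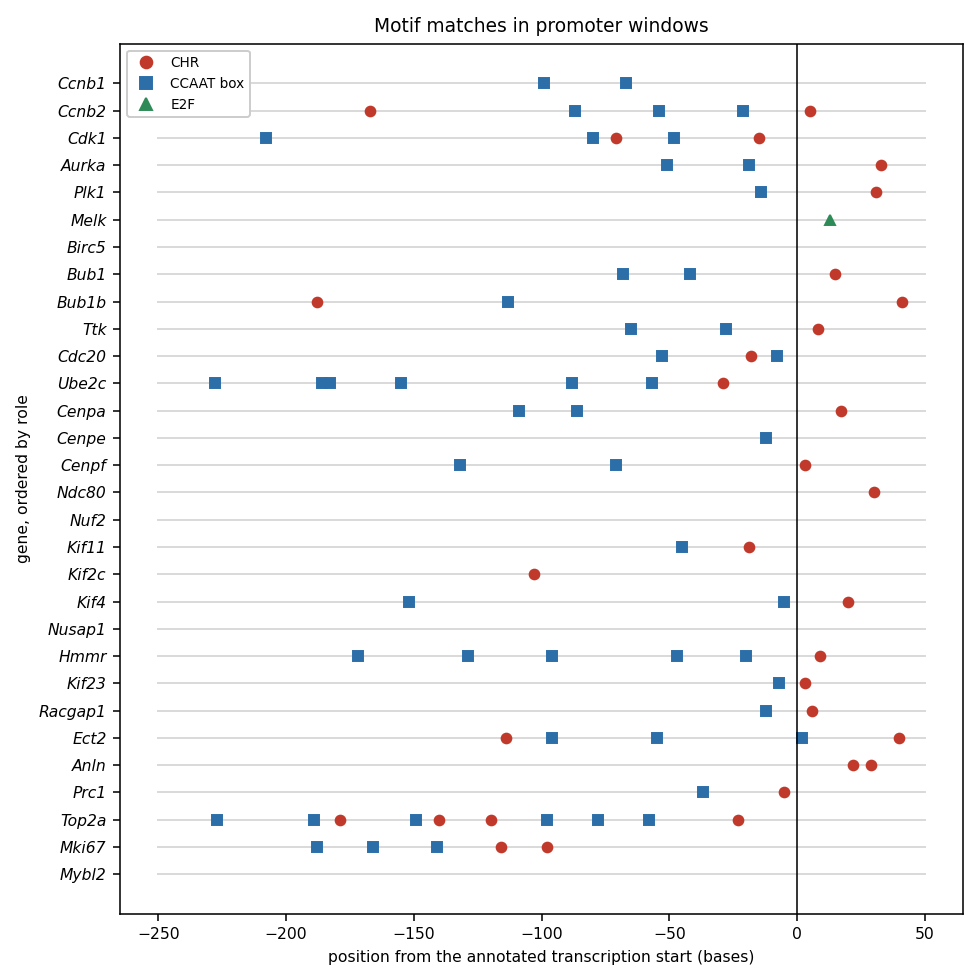
First base of each CHR (circles), CCAAT box (squares) and E2F (triangle) match in the promoter windows of 30 genes, in bases from the annotated start (0). The last CHR match lies to the right of the last CCAAT match in 19 of the 20 windows with both, and 4 genes have no match.

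Other genes of cell division were read beside the 35. Over 8 lists, 155 genes were tested, of which 104 fell and 24 rose by edgeR, where 27.2% of all genes tested fell and 27.7% rose. The count of each list below is to be read against these shares. Of 38 other kinetochore and checkpoint genes, 31 fell, 3 rose and 4 did not pass, with a median log2 fold change of -1.16. The Ndc80 complex genes Spc25 and Spc24 changed by -1.81 ± 0.13 and -2.57 ± 0.20, whereas Zw10 and Zwint rose, both by 0.38. Of 33 other spindle and cytokinesis genes, 29 fell, 1 rose and 3 did not pass, with a median of -1.46. The mitotic kinase gene Pbk changed by -2.62 ± 0.13 and the spindle gene Spag5 by -1.90 ± 0.11, and Gas2l3, a linker of actin and microtubules, rose by 0.89 ± 0.18.

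Of 17 subunits and partners of the anaphase-promoting complex, which Cdc20 and Ube2c serve, 4 fell, 6 rose and 7 did not pass, with a median of -0.08. Both counts are near the 27.2% of all genes that fell and the 27.7% that rose, so they set the list apart from genes in general in neither direction. The subunit gene Anapc15 changed by -1 ± 0.11 and the inhibitor gene Fbxo5 by -1.21 ± 0.15, while the subunit genes Anapc7 and Anapc2 rose by 0.65 ± 0.08 and 0.43 ± 0.08. Of 18 condensin and cohesin genes, 10 fell, 3 rose and 5 did not pass, with a median of -0.40. The condensin genes Smc2 and Ncapg changed by -1.72 ± 0.13 and -1.99 ± 0.17, and the cohesin genes Smc3 and Rad21 rose by 0.45 ± 0.12 and 0.38 ± 0.10. SMA 3 was at 36.4 CPM for Smc3 and at 102 CPM for Rad21, within the WT range of each.

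Genes of earlier cell cycle stages fell in part. Of 18 S phase genes, 15 fell, 2 rose and 1 did not pass, with a median of -0.98. The ribonucleotide reductase gene Rrm2 and the replicative helicase gene Mcm6 changed by -1.58 ± 0.10 and -1.69 ± 0.12, while Pole and Gins1 rose by 0.48 ± 0.13 and 0.45 ± 0.15. Gins1 did not pass without SMA 1, with an adjusted p of 0.0697 by edgeR, nor with sex as a covariate, with 0.101, nor with the replicate number as a block, with 0.0777. Of 10 G1 cyclins and kinases, 6 fell, 2 rose and 2 did not pass, with a median of -0.33. Cyclin E1, encoded by Ccne1, changed by -1.87 ± 0.18, while cyclin D2, encoded by Ccnd2, rose by 0.72 ± 0.10. Cdk2 was at 24.4 ± 0.867 CPM in SMA (SD, n = 4) and 20.5 ± 2.91 CPM in WT (SD, n = 5), with an adjusted p of 0.0482 by edgeR. The Cdk2 call was lost in 11 of 18 alternatives, among them leaving out any SMA library or WT 1, 3 or 5, with adjusted p-values of 0.0654 to 0.109 by edgeR in those.

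Of 16 genes of the DREAM, Rb and E2F group, which switch cell cycle genes off and on, 7 fell, 5 rose and 4 did not pass, with a median of -0.12. The count that rose is near the 27.7% of all genes that did, and 27.2% of all genes fell. E2f2 had 5.07, 4.79, 6.68 and 6.74 CPM in SMA libraries 1 to 4, against 30.0, 27.0, 29.7, 28.3 and 42.8 CPM in WT libraries 1 to 5 (-2.44 ± 0.16, adjusted p = 3.81e-07 by edgeR). Of the pocket protein genes, Rbl1, encoding p107, changed by -1.21 ± 0.11 and Rbl2, encoding p130, by 1.05 ± 0.13. Of the genes of MuvB subunits, Lin37 and Lin52 rose by 0.72 ± 0.11 and 0.80 ± 0.15. Lin54 changed by -0.34 ± 0.12 (adjusted p = 0.0358 by edgeR), and Lin9, at -0.33, and Rbbp4, at 0.11, did not pass. Of 7 genes of inhibitors of cyclin-dependent kinases 5 were tested, of which 2 rose, 2 fell and 1 did not pass. Cdkn1a, which encodes p21, had 849, 663, 454 and 721 CPM in SMA, against 38.2, 39.1, 41.7, 38.0 and 36.4 CPM in WT, a 17.4-fold rise (4.12 ± 0.16, adjusted p = 1.57e-08 by edgeR). SMA 3, the lowest SMA library for most mitotic genes, was also the lowest for Cdkn1a. Cdkn1b, encoding p27, rose by 0.32 ± 0.07, and Cdkn1c, encoding p57, and Cdkn2c, encoding p18, changed by -1.04 ± 0.11 and -1.11 ± 0.14.

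**Figure D5:**
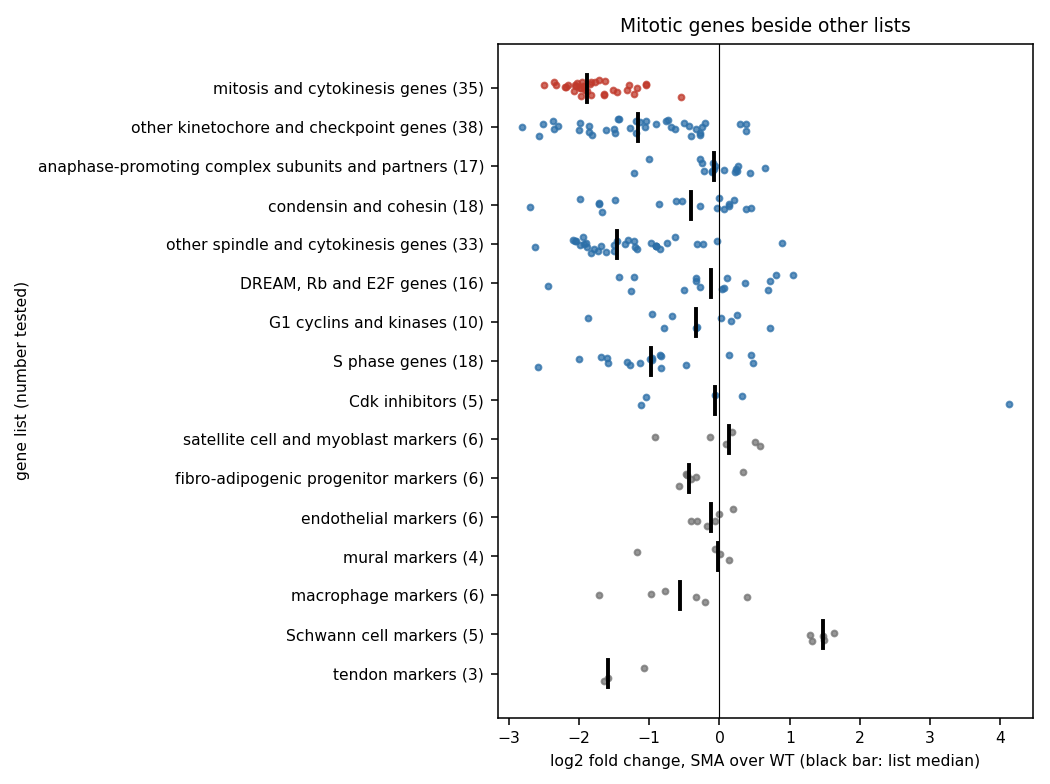
Log2 fold change, SMA over WT (horizontal axis), of each tested gene (points) in the 35 mitosis and cytokinesis genes (red), 8 lists of other cell cycle genes (blue) and markers of cell types (grey), with the list median as a black bar. The 35 genes all lie left of 0 around a median of -1.88, and the point at 4.12 is Cdkn1a.

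Markers of the cell types in which these genes could be expressed were read beside them, as sums of CPM over each list and as counts of markers called, to be read against the 27.2% of all genes tested that fell and the 27.7% that rose. Satellite cell and myoblast markers summed to 104 to 112 CPM in SMA and 96.8 to 117 CPM in WT, with overlapping groups. Of those 6 markers, 2 rose (Pax7 by 0.51 and Myf5 by 0.58), 1 fell (Vcam1, at -0.92, a marker shared with endothelium) and 3 did not pass, which is near those shares. The Pax7 call was lost without WT 1, 4 or 5 and without SMA 1, 2 or 4, with adjusted p-values of 0.0758 to 0.119 by edgeR, and also by limma-voom, at 0.0584, and with the replicate number as a block, at 0.154 by edgeR. The calls of Pax7 and Myf5 were lost with sex as a covariate, at 0.159 and 0.0503. Sums of 6 endothelial markers were 568 to 667 CPM in SMA and 580 to 718 CPM in WT, overlapping, and of the 6, 2 fell (Tek at -0.40 and Cdh5 at -0.32) and 4 did not pass. Neither call held under total-count scaling, with adjusted p-values of 0.202 for Tek and 0.566 for Cdh5 by edgeR. The Cdh5 call was also lost without WT 2, 3 or 4 and without SMA 1 or 4, with adjusted p-values of 0.0521 to 0.0903 by edgeR, with the replicate number as a block, at 0.0628, and with sex as a covariate, at 0.11. Sums of 4 mural markers were 191 to 229 CPM in SMA and 213 to 267 CPM in WT, also overlapping. Of the 4 mural markers 3 did not pass, and 1, the pericyte marker Rgs5, fell, with 22.4, 28.0, 23.1 and 24.6 CPM in SMA libraries 1 to 4, against 51.4, 58.2, 52.7, 53.1 and 61.9 CPM in WT libraries 1 to 5 (-1.18 ± 0.09, adjusted p = 1.02e-06 by edgeR). Markers of fibro-adipogenic progenitors were lower in sum, at 535 to 589 CPM in SMA and 636 to 912 CPM in WT. Of the 6, 4 fell and 1, Pdgfra, rose. Dcn and Cd34 fell without overlap. Dpt and Pi16 fell with overlapping groups, at adjusted p-values of 0.0369 and 0.028 by edgeR. The 4 that fell were not followed through the alternatives, and Pdgfra was. The adjusted p of Pdgfra by edgeR was 0.0555 without SMA 1, 0.0533 without SMA 2 and 0.0571 with sex as a covariate, so its call was lost in those. Macrophage markers summed to 45.9 to 61.6 CPM in SMA and 87.4 to 107 CPM in WT, and 4 of 6 fell, led by Mrc1 at -1.72. Mrc1 alone averaged 15.5 CPM in SMA and 51.1 CPM in WT, a large part of the difference in the sums. Adgre1 fell without overlap, at -0.78, and C1qa and Ptprc fell with overlapping groups. Csf1r, at -0.20, and Cd68, at 0.39, did not pass. For comparison, the 35 mitotic genes summed to 94.2 to 118 CPM in SMA and 313 to 418 CPM in WT, without overlap.

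Among the other lists, Schwann cell markers were higher, at 862 to 1910 CPM in SMA and 340 to 762 CPM in WT, and all 5 rose. Tendon markers were lower, at 7.59 to 15.3 CPM in SMA and 22.9 to 47.7 CPM in WT, and all 3 fell. Cartilage and bone markers summed to 5.86 to 10.5 CPM in SMA and 10.7 to 160 CPM in WT, where WT 1 and WT 2 were far above the others. All 4 that were tested fell, with a median log2 fold change of -3.93, but of these only Acan had groups that did not overlap. Bglap had 0.305 CPM in WT 3 and 0.14 CPM in WT 4, within the SMA range of 0.133 to 0.63 CPM. Markers of lymphocytes and of neutrophils and marrow precursors were scarcely present. Neutrophil and marrow precursor markers summed to at most 1.09 CPM in SMA and 3.78 CPM in WT, and lymphocyte markers to at most 1.74 CPM in SMA and 3.40 CPM in WT. Of the 2 lymphocyte markers tested 1 fell and 1 did not pass, and the 2 tested of the other list did not pass. Erythroid precursor markers summed to 13.9 to 20 CPM in SMA and 13.7 to 25 CPM in WT. Of 2 tested, Epor rose by 1 ± 0.19 and Alas2 changed by -0.92 ± 0.20. Adipocyte markers summed to 2.99 to 13.7 CPM in SMA and 7.30 to 47.4 CPM in WT. Of 4 tested, Lep and Plin1 fell and 2 did not pass. Lep averaged 0.0205 CPM in SMA and 1.59 CPM in WT. Keratinocyte markers summed to 5.26 to 8.64 CPM in SMA and 4.78 to 18.9 CPM in WT, and all 3 did not pass. Muscle fibre markers summed to 52100 to 66100 CPM in SMA and 101000 to 142000 CPM in WT, and 5 of 6 fell. What part the marker lists that moved with the groups have in the fall of the mitotic genes was not tested.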

How the data were processed

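Polyadenylated RNA of hindlimb muscle was sequenced in 4 SMA and 5 WT libraries. Stranded libraries were made of 200 ng RNA (integrity number over 7) and read as pairs of 75 bases, per the labels' protocols. The deposited table holds the authors' raw counts per gene. HTSeq 0.9.1, DESeq2 1.16.1 and mm10 are named, per the submitters' processing notes. Neither the aligner nor the annotation or strand setting of the counting is given in the sources used here. A second deposited table, of normalized values, was not used.

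For the analysis, edgeR 4.0.16 in R 4.3.3 was used: filterByExpr, TMM scaling and a quasi-likelihood test with group as the 1 term, adjusted by Benjamini-Hochberg over 15873 genes at a threshold of 0.05. The SE is the size of the log2 fold change divided by the square root of F. The procedure was tested on simulated data. Depth was 24917665 to 35087722 counts per library. Chi-square values per degree of freedom between libraries of a group were 12 to 87.5, above sampling noise in every pair. DESeq2 1.42.0 and limma 3.58.1 were among 18 alternatives. Positions, exon lengths and overlaps are those of GENCODE M21, and promoters are RefSeq's on GRCm38.p6. Of 262 list entries, 255 matched by symbol, 5 by an older symbol and 2 did not match.

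The 35 genes, their roles, the other lists and the tests were chosen with earlier results of these data known. Values in every library are given for the gene of each role with the lowest adjusted p, the 5 lowest log2 fold changes, and Mki67, Top2a, Cdk1 and Ccnb1. Of each other list, the 2 lowest adjusted p-values and up to 2 genes called the opposite way are named. Kif20a, Anapc2, Lin52, Lin54, Lin9, Rbbp4, Cdkn1b, Cdkn2c, the named marker genes and genes with overlapping exons, and the partner pairs were chosen after values were seen. The partner ratios have no test.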

Additional observations from a re-analysis of the deposited data

Results flagged for a closer look

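Among 88 sets of values, each a gene or a partner ratio in 1 group, 5 held a library whose gap to its nearest neighbour was too large a part of the group's range by Dixon's test at the 95% level, where chance flags about 1 in 20. WT 5 was low in 4 of them. Plk1 had 3.51 CPM in WT 5, against 5 to 5.38 CPM in the other WT libraries. Birc5 had 7.87 CPM in WT 5, against 11.7 to 12.8 CPM in the others, and Tpx2 had 12.5 CPM there, against 14.9 to 15.7 CPM. The log2 ratio of Tpx2 to Aurka was -0.236 in WT 5, against 0.0741 to 0.189 in the other WT libraries. In the remaining set Ttk had 1 CPM in SMA 1, against 0.772 to 0.786 CPM in the other SMA libraries. All SMA libraries stayed below WT 5 for Plk1, Birc5 and Tpx2.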

How the results depend on the processing

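All 35 genes fell in 17 of 18 alternatives, and 34 fell when libraries were scaled to total counts, where Kif20a did not pass. Of 630 refitted fold changes of these genes, 629 kept their direction and call. Total-count scaling put the median over all genes at 0.24 on the log2 scale, against 0.006, so that 2164 genes fell, against 4319, and 74.7% of the calls rose, against 50.4%. The median log2 fold change of the 35 genes ran from -1.926 without WT 1 to -1.67 under that scaling. Under it 2 genes of the anaphase-promoting complex list fell, 6 of condensin and cohesin rose and 3 of G1 fell. Without SMA 3 and WT 5 together, 5 of condensin and cohesin rose. In 11 alternatives 1 G1 gene rose, against 2. Of 42 other genes followed through the alternatives, 34 kept their call in all of them. The exceptions were Cdc23, Cdk2, Gins1, Pax7, Myf5, Pdgfra, Tek and Cdh5. Leaving out 1 library gave 7655 to 9083 calls over all genes and sex as a covariate 6883, against 8712.

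Libraries of SMA and WT share replicate numbers 1 to 4, but the deviations of same-numbered libraries correlated at 0.118, -0.00555, -0.0482 and 0.0971, so the numbers were not taken to pair animals. With the number as a replicate block, all 35 genes fell, at a median of -1.916 and a largest adjusted p of 0.00612 by edgeR, and 7879 genes were called in all. WT 5 shares its number with no SMA library, so the comparison in that fit rests on replicates 1 to 4. The 9 partner-ratio differences were also taken with each library left out in turn, an alternative added after seeing the data. In groups of 4 and 5, leaving out 1 library cannot move a difference by 1 SD between libraries, so that limit tests nothing. The difference of Nuf2 to Ndc80 ran from -0.72 to -0.56 and that of Ccnb2 to Cdk1 from -0.34 to -0.11. For Tpx2 to Aurka the difference ran from 0 to 0.23. The number of libraries, and counts as low as 20 for a gene in a library, limit the precision of each value.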
